A study of Homo sapiens with 6 samples.

Results

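The insulin-like growth factor (IGF) binding proteins and receptors were followed in 6 libraries labelled MCF10A, an established line of human mammary epithelial cells that does not form tumours. The set held 10 genes of the 20793 measured: the binding proteins IGFBP1 to IGFBP7, the receptors IGF1R and IGF2R, and the ligand IGF2. It was listed by gene symbol and chosen by a rule that uses the measured reads in all 6 libraries. The differences of these 10 genes are therefore given as a description, with no p-value for any of them. Where a fit over all genes called some of them, the calls are counted as a description too. The 6 libraries were labelled as 2 replicates each of untransfected MCF10A WT, MCF10A eGFP and MCF10A GIRK1. The MCF10A eGFP cells had been transfected with a vector for enhanced green fluorescent protein, and the MCF10A GIRK1 cells with the same vector carrying the GIRK1 coding sequence (KCNJ3, a subunit of G-protein activated potassium channels). Both were selected with G418 and sorted for eGFP fluorescence, so each is a selected population and not an inducible model. All lines were kept in mammary epithelial medium with a supplement kit that contains insulin. Whether the 2 replicates were separate lines or separate cultures of 1 line is described differently in the sources. If they were cultures of 1 line, their spread leaves out differences between lines. GIRK1 and the line then cannot be told apart.

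IGF1 and IGF2 are secreted growth factors that signal through IGF1R, a receptor tyrosine kinase closely related to the insulin receptor. IGF2R, also the cation-independent mannose 6-phosphate receptor, takes IGF2 into lysosomes and has no kinase. IGFBP1 to IGFBP6 bind IGFs with high affinity and set how much ligand reaches the receptor, while IGFBP7 is a related secreted protein that binds IGFs weakly. In mammary epithelium the IGF pathway is known for its part in growth, survival and involution.

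Each gene was read on 1 short amplicon, between 97 and 107 bases long for these 10 genes, and is given as RPM, its reads scaled to the library total. Levels of different genes are not compared, because amplicons can differ in how well they amplify. The libraries held between 2506120 and 16040556 reads, and the level of 3 reads, taken as the floor, lay between 0.187 and 1.20 RPM. KCNJ3 had 217 and 355 RPM in the MCF10A GIRK1 libraries and 0 reads in both MCF10A eGFP libraries and in WT replicate 2, but 48 reads (19.2 RPM) in the library labelled WT replicate 1. That library also stood apart in its cell type markers. The basal cytokeratins KRT14 and KRT17 were at 0 in it, and lay between 306 and 592 RPM and between 853 and 4513 RPM in the other 5. The luminal markers ESR1, PGR, KRT19 and TFF1 were at 0 reads in the other 5 and at 192, 62.6, 924 and 5106 RPM in it. Over the 10 luminal markers the sum was 16404 RPM in it and between 531 and 1024 RPM in the others. The sum over the 10 basal markers was 752 RPM in this library, against 9435 to 16806 RPM. Most of the 752 RPM was CDH1, which went the other way, at 672 RPM against 96.3 to 116 RPM in the other 5. The p63 gene TP63, among the basal markers, was at 0 in all 6 libraries. The summed levels of the fibroblast markers (8.60 to 33.5 RPM), endothelial markers (0.0900 to 0.399 RPM) and immune markers (0 to 21.7 RPM) are given as ranges over the 6 libraries. This library is named by its label throughout, is kept out of the comparison of MCF10A GIRK1 with MCF10A eGFP, and is described on its own. The MCF10A GIRK1 libraries also carry a label tag of the deposit that the other 4 lack, and if the tag stands for a run, the condition and the run cannot be told apart.

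On GRCh38 (GENCODE 29) the binding protein genes lie partly in neighbouring pairs. IGFBP2 (chr2:216632828-216664436, plus strand) and IGFBP5 (chr2:216672105-216695525, minus strand) are 7668 bases apart. IGFBP1 (chr7:45888357-45893668, plus strand) and IGFBP3 (chr7:45912245-45921874, minus strand) are 18576 bases apart. IGFBP4 (chr17:40443461-40457731, plus strand), IGFBP6 (chr12:53097436-53102345, plus strand), IGFBP7 (chr4:57030773-57110385, minus strand), IGF1R (chr15:98648539-98964530, plus strand) and IGF2R (chr6:159969099-160113507, plus strand) are the only members on their chromosomes. IGF2 (chr11:2129112-2149603, minus strand) is the imprinted ligand gene. IGFBP2 and IGFBP5 were both highest in the library labelled WT replicate 1, and IGFBP2 was read in all 6 libraries. IGFBP1 had no read in any library, and IGFBP3 had reads in all 6.

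The 250 bases upstream of the RefSeq start site (GRCh38.p14) are shown for 3 of the binding proteins. IGFBP7 had no window in the RefSeq table. The windows of IGFBP6, which lies largely in an annotated exon, and of the receptors are not shown. The IGFBP3 window lies before the RefSeq start but inside the longer span that GENCODE gives for the gene. IGFBP3 (chr7:45921273-45921522, minus strand) differed between MCF10A GIRK1 and MCF10A eGFP, while IGFBP4 (chr17:40443200-40443449, plus strand) and IGFBP5 (chr2:216695550-216695799, minus strand) differed between the libraries labelled WT. Capitals mark the letters TATAAA, known as a TATA box, where either strand held them. The letters GGGCGG, known as a GC box, are marked in the same way. The letters CCAAT were searched likewise, and the searched letters do not overlap each other in these windows.
IGFBP3: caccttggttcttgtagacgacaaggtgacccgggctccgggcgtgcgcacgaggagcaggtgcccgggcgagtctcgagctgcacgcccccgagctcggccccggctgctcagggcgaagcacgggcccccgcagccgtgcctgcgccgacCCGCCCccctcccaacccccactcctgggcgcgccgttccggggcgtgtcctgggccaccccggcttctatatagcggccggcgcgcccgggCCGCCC
IGFBP4: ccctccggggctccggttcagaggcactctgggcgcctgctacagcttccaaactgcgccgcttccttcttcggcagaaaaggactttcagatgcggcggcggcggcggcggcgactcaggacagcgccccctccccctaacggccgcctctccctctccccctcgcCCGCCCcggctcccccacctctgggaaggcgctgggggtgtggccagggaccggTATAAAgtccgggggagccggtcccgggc
IGFBP5: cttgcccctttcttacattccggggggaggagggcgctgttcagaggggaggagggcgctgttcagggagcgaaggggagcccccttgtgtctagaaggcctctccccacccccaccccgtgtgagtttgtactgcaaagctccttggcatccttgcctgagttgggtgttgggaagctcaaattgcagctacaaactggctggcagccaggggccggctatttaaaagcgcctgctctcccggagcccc
IGFBP4 held TATAAA 29 bases before the start, a word that 10.7% of the 35116 upstream windows in the RefSeq table held. GGGCGG stood 98 and 6 bases before the IGFBP3 start and 83 bases before the IGFBP4 start, and IGFBP5 held none of the 3 words. The 7 members with a window had 9 windows between them, and 6 members held GGGCGG in at least 1. Of all single windows in the RefSeq table, 42.6% held GGGCGG. That share is per window and not per gene, so it is no like measure. Only an alternative window of IGFBP2 held CCAAT, and 32.0% of all windows did. The matches are letters in these windows and no measure of binding.

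**Figure D1:**
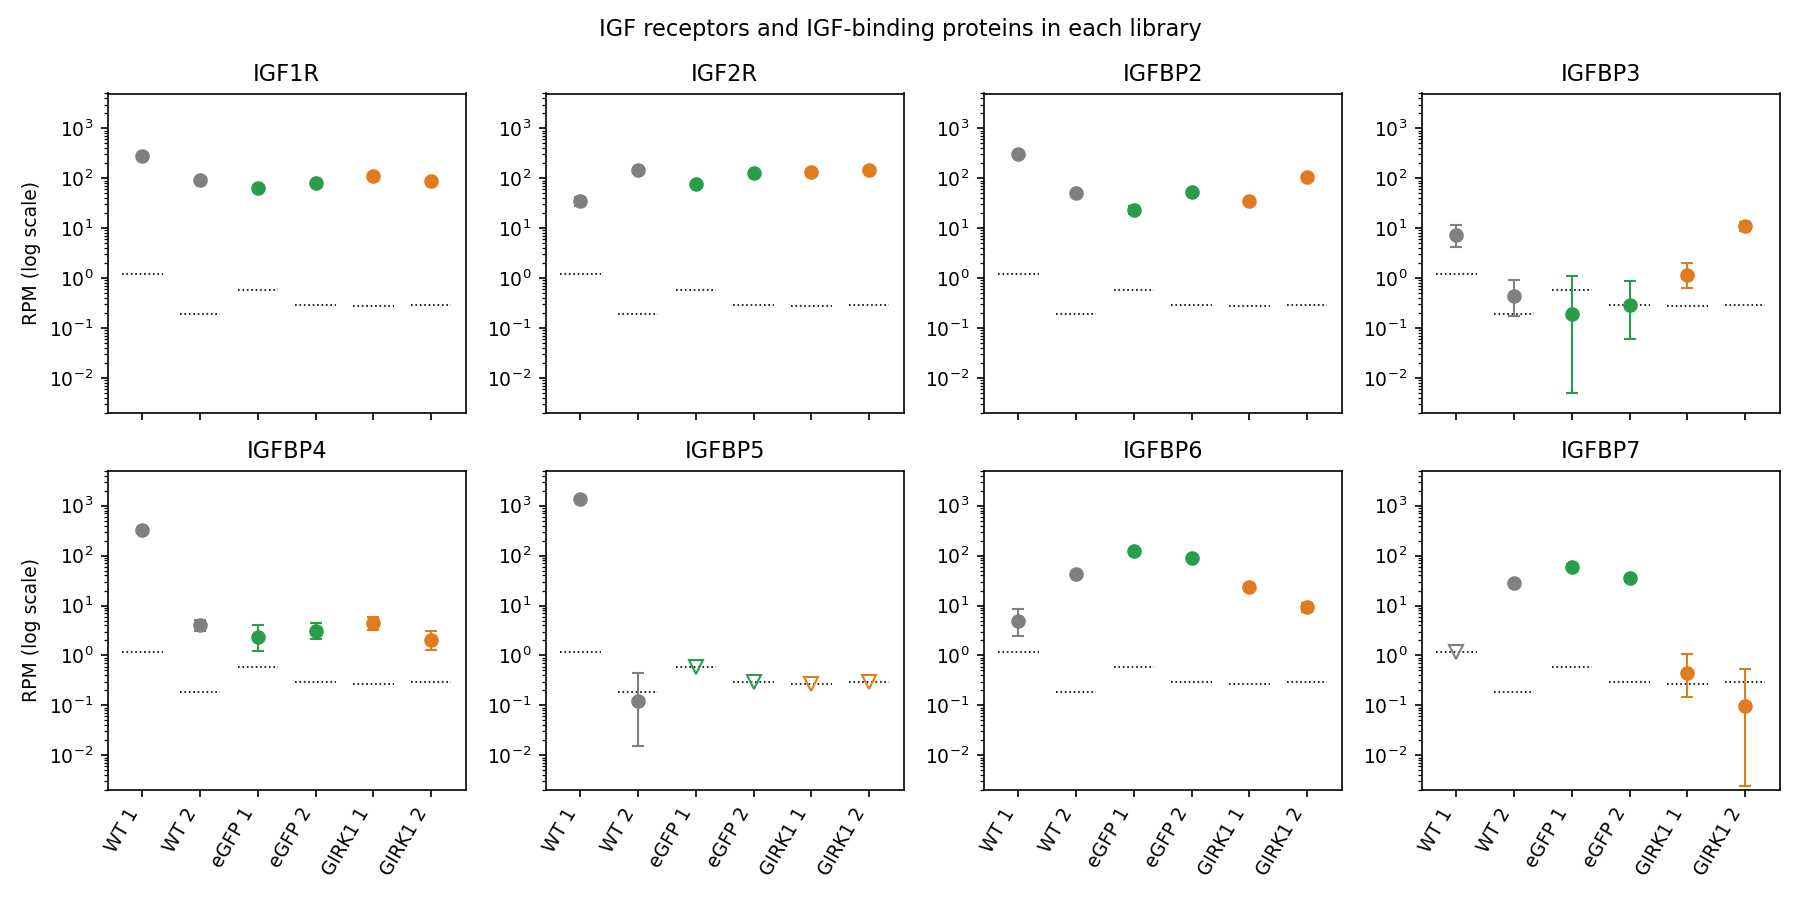
RPM (log axis) of 8 of the 10 genes in each library, as labelled, with exact Poisson 95% intervals (bars). Dotted lines mark the level of 3 reads in that library and open triangles are libraries with 0 reads, drawn at that level. IGFBP6 and IGFBP7 are lower in both MCF10A GIRK1 libraries than in both MCF10A eGFP libraries, and the library labelled WT replicate 1 is far from the others for IGFBP4 and IGFBP5.

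IGF1R, the signalling receptor, was read in all libraries. It had 64.2 and 82.0 RPM in MCF10A eGFP, 113 and 87.5 RPM in the MCF10A GIRK1 libraries and 93.8 RPM in WT replicate 2. The MCF10A GIRK1 libraries lay above both MCF10A eGFP libraries but on either side of WT replicate 2. Group means were 73.1 ± 12.6 RPM in MCF10A eGFP against 100 ± 17.9 RPM in MCF10A GIRK1 (SD, n = 2), a log2 difference of 0.42 ± 0.22 (SE) in the edgeR fit of these 4 libraries.

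IGF2R, the scavenging receptor, had 76.5 and 125 RPM in MCF10A eGFP, 134 and 147 RPM in the MCF10A GIRK1 libraries and 146 RPM in WT replicate 2. Here too the MCF10A GIRK1 libraries were above both MCF10A eGFP libraries and not apart from WT replicate 2. The means were 101 ± 34.7 and 140 ± 9.22 RPM (SD, n = 2), with a log2 difference of 0.45 ± 0.26 (SE). The lower MCF10A eGFP library contributed much of it, since the log2 difference was 0.77 without MCF10A eGFP replicate 2 and 0.17 without MCF10A eGFP replicate 1. Both MCF10A GIRK1 libraries lay above both MCF10A eGFP libraries for 3 members, IGF1R, IGF2R and IGFBP3, of the 7 that passed the filter on low counts, and 29.1% of all genes tested did so.

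The ligand gene IGF2 had 0 reads in all 6 libraries, which allows at most 0.187 to 1.20 RPM per library. IGFBP1, known as a secreted product of liver and decidua, was likewise at 0 in all 6. IGFBP5 had 0 reads in all 4 transfected libraries and 2 reads in WT replicate 2. These 3 genes did not pass the filter and entered no fit.

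IGFBP7 and IGFBP6 were the members with lower levels in MCF10A GIRK1. IGFBP7, also found in the matrix around vessels and epithelium, had 307 and 364 reads in MCF10A eGFP (59.9 and 35.6 RPM), 462 reads in WT replicate 2 (28.8 RPM), and 5 reads and 1 read in MCF10A GIRK1 (0.450 and 0.0970 RPM). The MCF10A GIRK1 libraries were near the floor, and the 3 others were far above it. In such bulk RNA, fewer cells with the transcript and less of it per cell cannot be told apart. Pooled over replicates, the read rate in MCF10A eGFP was 156 times that in MCF10A GIRK1, with a 95% counting interval (exact, Clopper-Pearson) of 71.4 to 427. Against WT replicate 2 the ratio was 103, with an interval of 47.0 to 282. The fitted log2 difference was -7.40 ± 0.60 (SE), and it ranged from -8.78 to -6.75 over all fits.

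IGFBP6, the binding protein with a preference for IGF2, had 121 and 89.4 RPM in MCF10A eGFP, 43.3 RPM in WT replicate 2, and 23.5 and 9.28 RPM in MCF10A GIRK1. The 3 sets did not overlap, and WT replicate 2 lay between them. The means were 105 ± 22.6 RPM in MCF10A eGFP against 16.4 ± 10.1 RPM in MCF10A GIRK1 (SD, n = 2), a 6.43-fold difference. Against WT replicate 2 the difference was 2.64-fold, so the size depended on which control was used. The fitted log2 difference was -2.73 ± 0.45 (SE) and stayed between -3.54 and -2.23 over all fits.

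IGFBP3, the main carrier of IGFs in serum, was low in the controls and uneven in MCF10A GIRK1. It had 1 and 3 reads in MCF10A eGFP (0.195 and 0.293 RPM), 7 reads in WT replicate 2 (0.436 RPM), and 13 and 112 reads in MCF10A GIRK1 (1.17 and 10.8 RPM). Both MCF10A GIRK1 libraries were above the 3 others, but they were 9.25-fold apart from each other. The pooled read rate was 22.4 times that of MCF10A eGFP (95% counting interval 8.52 to 83.4). For MCF10A GIRK1 replicate 1 alone the ratio was 4.49 (1.39 to 18.9), and for replicate 2 alone it was 41.6 (15.8 to 155). The fitted log2 difference was 4.45 ± 1.28 (SE), and it was 2.09 without MCF10A GIRK1 replicate 2 and 5.31 without replicate 1.

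IGFBP2 and IGFBP4 overlapped between the lines. IGFBP2, another binding protein abundant in serum, had 23.4 and 52.4 RPM in MCF10A eGFP, 34.5 and 106 RPM in the MCF10A GIRK1 libraries and 50.8 RPM in WT replicate 2. Its fitted log2 difference was 0.87 ± 0.56 (SE) and turned to -0.18 without MCF10A GIRK1 replicate 2. IGFBP4, whose cleavage by the protease PAPPA releases IGF, had 2.34 and 3.13 RPM in MCF10A eGFP, 4.41 and 2.03 RPM in the MCF10A GIRK1 libraries and 3.99 RPM in WT replicate 2. Its log2 difference was 0.18 ± 0.52 (SE) and turned to -0.46 without MCF10A GIRK1 replicate 1.

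**Figure D2:**
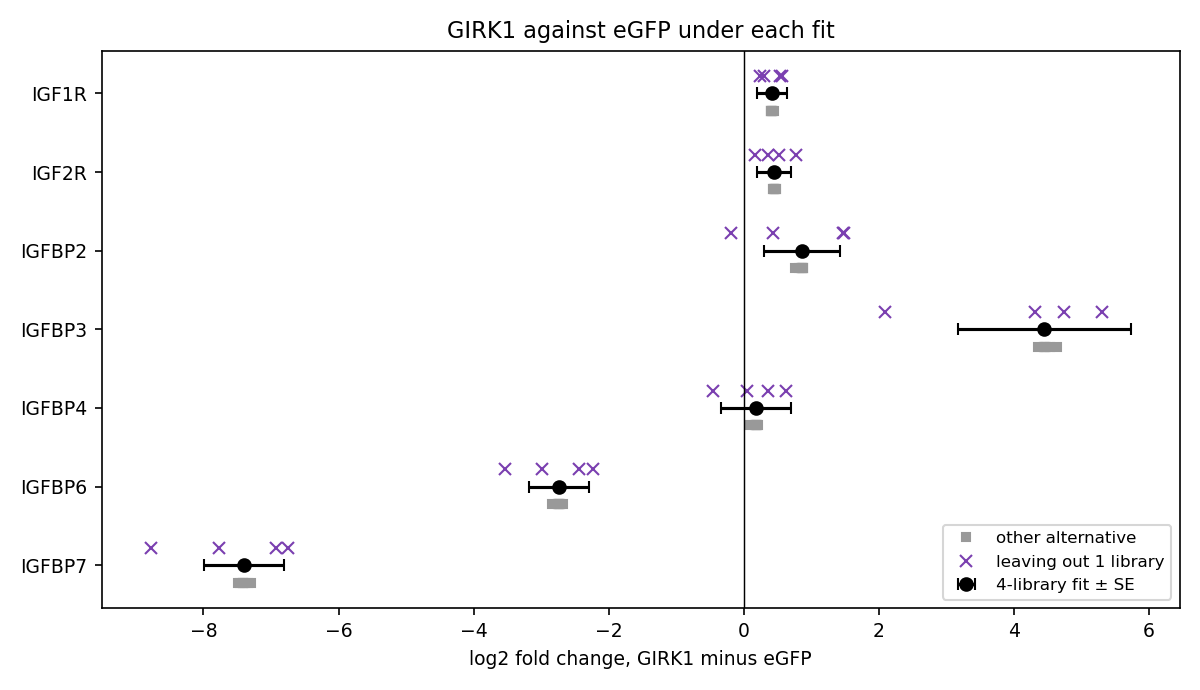
Fitted log2 fold change of MCF10A GIRK1 minus MCF10A eGFP for the 7 members that passed the filter. Black points are the 4-library fit with its SE, grey squares are fits with another normalization, filter, test or set of libraries, and crosses leave out 1 library. IGFBP6 and IGFBP7 stay below 0 and IGFBP3 above it in every fit that tested them, while IGFBP2 and IGFBP4 cross 0 when 1 library is left out.

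Set against the whole table, 2 of the 7 members tested were called lower in MCF10A GIRK1 by edgeR's quasi-likelihood test, IGFBP6 and IGFBP7, and 0 were called higher. Over the 11270 genes tested, 0.745% were called lower and 0.781% higher, 172 in all. Since the members were chosen on these values, nothing is read from the count. IGFBP7 passed the filter on low counts through its MCF10A eGFP reads, and IGFBP3 through its MCF10A GIRK1 reads. The side on which these genes lay was thus partly fixed beforehand. The median log2 difference was 0.42 over the 7 members and 0.01 over all genes. The total of 172 depended on single libraries, with 717 calls without MCF10A eGFP replicate 1, 2930 without MCF10A eGFP replicate 2, 106 without MCF10A GIRK1 replicate 1 and 97 without MCF10A GIRK1 replicate 2. In these 4 fits 1 line has a single library, which is assumed to vary like the pair of the other line, so the spread has 1 residual degree of freedom. The fit of all 6 libraries as 3 groups called 0 genes (606 at an unadjusted p below 0.05), and DESeq2 on the 4 libraries called 693. The fit of all 6 takes the 2 libraries labelled WT as replicates. Its spread between replicates, estimated over all genes as a CV, was 0.468 against 0.240 in the 4-library fit. With 5 libraries, without WT replicate 1, the log2 differences were -2.73 for IGFBP6 and -7.41 for IGFBP7.

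The study's methods call a gene when means are 2-fold apart and the CV (the SD over the mean) is below 0.7 in each group. By this rule 1 member, IGFBP6, was lower and 0 were higher, against 4.57% of genes lower and 4.21% higher. The CV in MCF10A GIRK1 was 0.61 for IGFBP6, 0.91 for IGFBP7, 1.14 for IGFBP3 and 0.72 for IGFBP2. IGFBP7 and IGFBP3 failed on it alone, while the means of IGFBP2 were also less than 2-fold apart (1.86-fold). IGFBP7 passed when the population SD was used. When WT replicate 2 was set beside the MCF10A eGFP libraries, both MCF10A GIRK1 libraries lay below all 3 for IGFBP6 and IGFBP7 and above all 3 for IGFBP3. Over all genes tested, 19.5% lay below and 21.7% above. For both MCF10A GIRK1 libraries below both of MCF10A eGFP, the members were again IGFBP6 and IGFBP7, against 25.2% of genes. Among the basal markers, the sum was 10592 and 11041 RPM in MCF10A GIRK1 and 16806 and 10756 RPM in MCF10A eGFP, and its part in these differences was not tested. Of the 6 fibroblast markers, the sum was 31.9 and 33.5 RPM in MCF10A GIRK1, 10.7 and 8.60 RPM in MCF10A eGFP and 13.7 RPM in WT replicate 2. In MCF10A GIRK1 most of it was DCN, a matrix proteoglycan, at 27.0 and 25.2 RPM there, 0.780 and 3.71 RPM in MCF10A eGFP and 10.2 RPM in WT replicate 2, while COL1A2 and COL3A1 were at 0 in these 5 libraries. The part of these markers in the differences was not tested.

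The binding proteins also varied within MCF10A GIRK1. RPM of the 2 replicates differed at least 2-fold for 5 of the 7 members tested, and for 4.75% of all genes tested. The gap was 9.25-fold for IGFBP3, 3.08-fold for IGFBP2, 2.53-fold for IGFBP6 and 2.17-fold for IGFBP4. For IGFBP7 it was 4.64-fold, but this rests on 5 reads and 1 read, whose exact Poisson intervals overlap (0.146 to 1.05 and 0.00245 to 0.539 RPM). IGFBP3 and IGFBP2 were higher in replicate 2, and IGFBP4, IGFBP6 and IGFBP7 in replicate 1. The receptors IGF1R and IGF2R differed by 1.29-fold and 1.10-fold. Between the MCF10A eGFP replicates 1 of the 7 members passed 2-fold, IGFBP2 at 2.24-fold, and 15.8% of all genes tested did. The members were thus near the share of all genes there. These gaps belong to the values by which the set was chosen and carry no test.

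**Figure D3:**
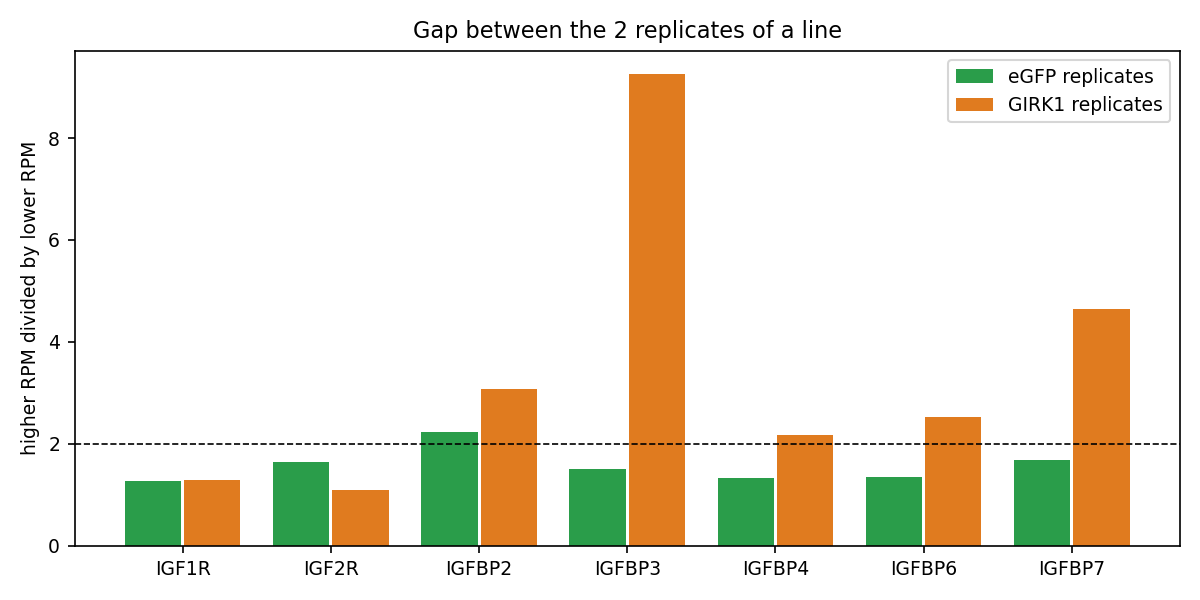
Ratio of the higher to the lower RPM of the 2 replicates (linear axis from 0) for the 7 members tested, in MCF10A eGFP and MCF10A GIRK1. The dashed line marks a 2-fold gap. In MCF10A GIRK1 all 5 binding proteins shown pass it and both receptors stay below, whereas in MCF10A eGFP only IGFBP2 passes.

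The library labelled WT replicate 1 had another binding protein profile. IGFBP5, which binds matrix and is known from mammary involution, had 3344 reads in it (1334 RPM, exact Poisson 95% interval 1289 to 1380), against 2 reads in WT replicate 2 (0.125 RPM, 0.0151 to 0.450) and 0 in the other 4. The ratio to WT replicate 2 was 10702, with a counting interval of 2960 to 88404. IGFBP4 had 822 reads in it (328 RPM) and 64 reads (3.99 RPM) in WT replicate 2, a ratio of 82.2 (63.7 to 108). IGFBP2 was at 300.1 RPM in it, 2.83-fold above the highest other library, and IGF1R was at 275 RPM, 2.43-fold above. Both intervals (279 to 322 and 254 to 296 RPM) lay above those of all other libraries.

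On the other side, IGFBP7 had 0 reads in this library and was at least 24.1-fold lower in it than in WT replicate 2, with 3 reads taken as its floor. IGFBP6 was at 4.79 RPM (2.47 to 8.36), an interval that overlaps that of MCF10A GIRK1 replicate 2 (7.52 to 11.3). IGF2R was at 34.7 RPM, 4.20-fold below WT replicate 2. IGFBP3 was at 7.18 RPM, which did not differ beyond counting error from MCF10A GIRK1 replicate 2 (ratio of that library to it 1.51, interval 0.911 to 2.64). Of the 7 members tested, 3 (IGFBP2, IGFBP4 and IGF1R) lay above the other 5 libraries and 3 (IGFBP6, IGFBP7 and IGF2R) below. Over all genes tested, 36.9% lay above and 35% below, so most genes lay outside the range of the other 5. The luminal markers given above moved with it, and whether it is the labelled line was not tested. Between WT replicate 2 and MCF10A eGFP the members read above the floor in both differed less, from 1.28-fold for IGF1R to 2.43-fold for IGFBP6.

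The other genes of the pathway were followed as 67 genes in 9 lists by role, of which 50 passed the filter. The median log2 difference of the 50 genes was 0.11, and 32 were positive and 18 negative. Over all genes the median was 0.01, with 5758 positive and 5512 negative. The split differed between lists. In the list of PI3K, AKT and mTOR genes 17 were positive and 4 negative, and in the mannose 6-phosphate list 1 and 3. A shift of the pathway as a whole was not tested.

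IGF2BP3, which binds IGF2 mRNA and other mRNAs, was at 2.73 and 6.06 RPM in MCF10A eGFP, 21.6 and 27.1 RPM in the MCF10A GIRK1 libraries and 22.4 RPM in WT replicate 2. It rose by 2.38 ± 0.38 (SE) on the log2 scale (adjusted p = 0.0425 by the quasi-likelihood test of edgeR, with Benjamini-Hochberg adjustment over all genes tested), while 0.781% of all genes were called higher. It was also called by DESeq2, but it lost the call without either MCF10A GIRK1 replicate and in the fit of all 6 libraries. The log2 difference kept its direction in each fit, and WT replicate 2 lay between the MCF10A GIRK1 libraries, so it did not stand apart from the untransfected cells. Its target IGF2 had no read.

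**Figure D4:**
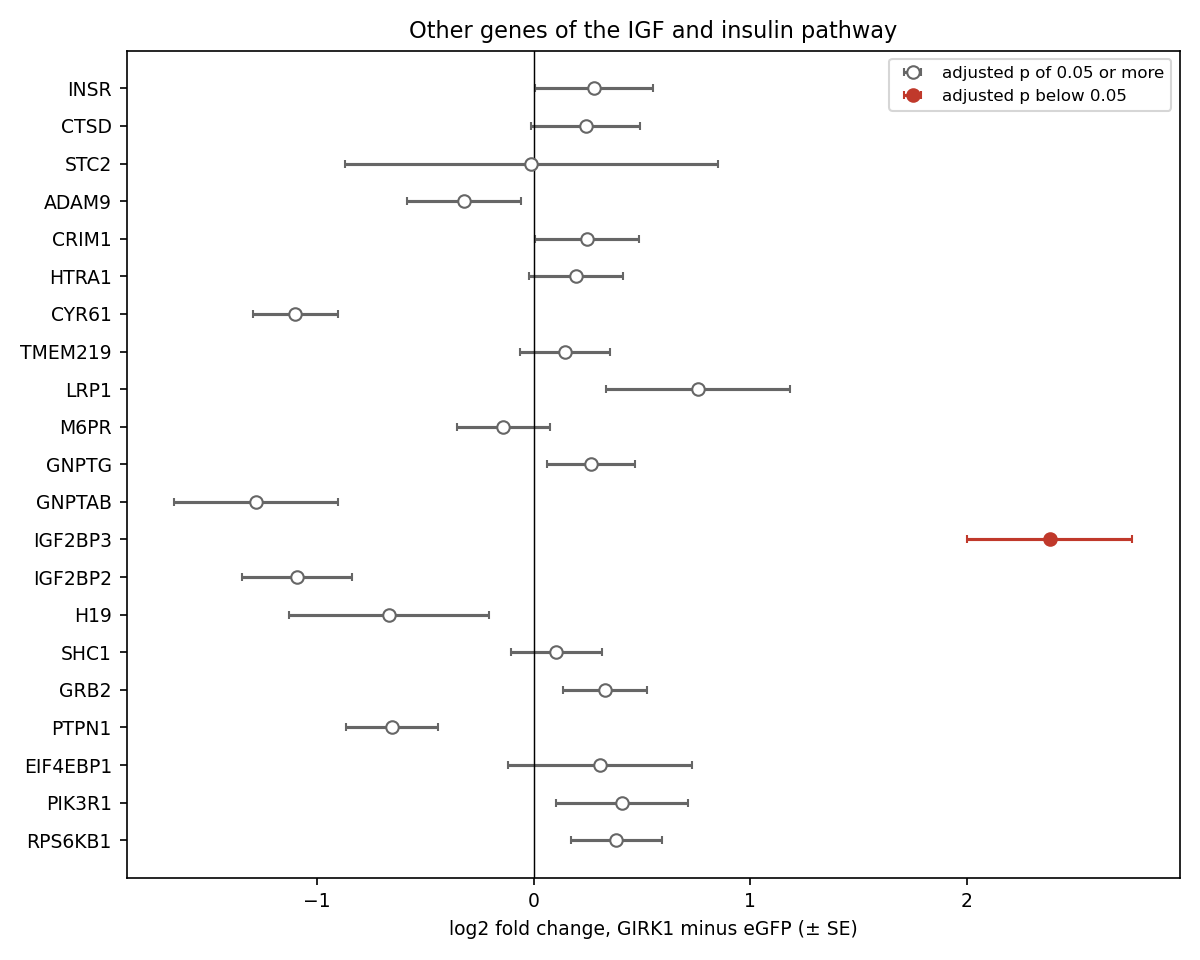
Log2 fold change of MCF10A GIRK1 minus MCF10A eGFP with its SE for the named pathway genes that passed the filter, in order of their lists. Filled red points passed an adjusted p of 0.05. IGF2BP3, at 2.38, is the only one shown that passed, and most of the others lie within 1 of 0.

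Ligands and receptors outside the set showed little. IGF1 had 0 reads in all libraries, and INS had 0 in 5 and 0.0980 RPM in MCF10A eGFP replicate 2. The insulin receptor INSR had 15.0 and 12.4 RPM in MCF10A eGFP, 16.2 and 17.9 RPM in the MCF10A GIRK1 libraries and 16.5 RPM in WT replicate 2, with a log2 difference of 0.28 ± 0.27 (SE, adjusted p = 0.607). Its relative INSRR was at 0 in 5 libraries. In the library labelled WT replicate 1 INSR was at 13.6 RPM, within the range of the others.

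Among the proteases that cut binding proteins and their inhibitors, 0 of the 5 genes tested passed. Cathepsin D (CTSD) was at 542 ± 24.0 RPM in MCF10A eGFP against 661 ± 178 RPM in MCF10A GIRK1 (SD, n = 2). The metalloprotease ADAM9 was at 113 ± 28.9 and 93.3 ± 2.97 RPM (SD, n = 2). Stanniocalcin STC2, an inhibitor of PAPPA, varied within MCF10A eGFP, at 67.9 and 721 RPM, and had 306 and 471 RPM in MCF10A GIRK1, so no difference was detectable. IGFALS, the third partner of the serum complex with IGFBP3, was not analysed here.

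Of the proteins related to IGFBPs by sequence, 0 of the 5 tested passed. CYR61, a matrix protein with an IGFBP-like domain, was at 123 and 131 RPM in MCF10A eGFP, 65.3 and 56.7 RPM in the MCF10A GIRK1 libraries and 85.2 RPM in WT replicate 2. The log2 difference of -1.10 ± 0.20 (SE) missed the threshold (adjusted p = 0.0574). The growth factor-binding membrane protein CRIM1 and the serine protease HTRA1 had log2 differences of 0.24 ± 0.24 and 0.20 ± 0.22 (SE). The cell surface partners TMEM219, described as a receptor for IGFBP3, and LRP1, an endocytic receptor, had log2 differences of 0.15 ± 0.21 and 0.76 ± 0.43 (SE), with adjusted p of 0.728 and 0.370 by edgeR.

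Genes of the mannose 6-phosphate route, which shares IGF2R with IGF2, gave 0 of 4 calls. The second receptor M6PR was at 108 ± 7.88 RPM in MCF10A eGFP against 100 ± 16.2 RPM in MCF10A GIRK1 (SD, n = 2). GNPTAB, a subunit of the enzyme that makes the tag, was at 30.2 and 16.1 RPM in MCF10A eGFP, 9.72 and 9.86 RPM in the MCF10A GIRK1 libraries and 14.0 RPM in WT replicate 2 (adjusted p = 0.149). Its partner GNPTG had a log2 difference of 0.26 ± 0.20 (SE). Beside IGF2BP3, the related IGF2BP2 had a log2 difference of -1.09 ± 0.25 (SE) that missed the threshold (adjusted p = 0.0963), with 100 and 73.6 RPM in MCF10A eGFP against 40.5 and 43.6 RPM in the MCF10A GIRK1 libraries. The imprinted RNA H19, next to IGF2 in the genome, was read although IGF2 was not, at 25.4 and 70.1 RPM in MCF10A eGFP against 22.9 and 38.2 RPM in the MCF10A GIRK1 libraries.

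Downstream of the receptors, 0 of 9 substrates and adaptors passed. The adaptors SHC1 and GRB2 had log2 differences of 0.10 ± 0.21 and 0.33 ± 0.19 (SE), and the phosphatase PTPN1, which acts on the insulin receptor, had -0.66 ± 0.21 (SE, adjusted p = 0.177). The translation repressor EIF4EBP1 was at 332 ± 227 RPM in MCF10A eGFP against 414 ± 4.88 RPM in MCF10A GIRK1 (SD, n = 2). The regulatory subunit PIK3R1 was at 96.4 and 186 RPM in MCF10A eGFP and at 209 and 172 RPM in the MCF10A GIRK1 libraries. The kinase RPS6KB1 was at 32.7 ± 0.67 and 43.7 ± 0.21 RPM (SD, n = 2). In the library labelled WT replicate 1, RPS6KB1 stood at 752 RPM and SHC1 at 113 RPM, whereas SHC1 lay between 960 and 1239 RPM in the other 5.

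Over the 6 libraries, the genes most like IGFBP7 in log2(RPM + 1) were GALNT1 (Pearson r = 0.997), TENM4 (0.995) and SPARC (0.992), among the 11235 genes whose reads averaged 10 or more. SPARC, a matrix protein, had 104 and 52.2 RPM in MCF10A eGFP, 31.7 RPM in WT replicate 2, 1.89 and 0.483 RPM in MCF10A GIRK1 and 0 in the library labelled WT replicate 1. GALNT1 was likest in shape only, since it spanned 84.2 to 140 RPM. TENM4 was low throughout, from 0.387 to 2.54 RPM, so its likeness rests on few reads. Among the genes most like IGFBP3 were ENOSF1 (0.975) and ZFP90 (0.971). ENOSF1 had 57.9 RPM in the library labelled WT replicate 1 and 58.2 RPM in MCF10A GIRK1 replicate 2, and lay between 38.2 and 47.3 RPM in the other 4. These correlations rest on 6 libraries of unequal depth, and those with IGFBP3 follow the 2 libraries in which it was highest. Those with IGFBP7 follow a split of MCF10A GIRK1 and the library labelled WT replicate 1 from MCF10A eGFP and WT replicate 2.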

How the data were processed

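RNA of 6 libraries labelled MCF10A was measured by Ion AmpliSeq Transcriptome sequencing, with 1 amplicon per gene. Reads were mapped by the authors to an amplicon transcriptome in the RNA workflow of the Ion Torrent suite, whose version is not given in the sources used here. The deposited counts are whole, unnormalized reads per amplicon. The RPM that the authors deposited is the count scaled to the library total. How reads of near-identical genes were assigned is not stated. Of 20812 rows, 19 are spike-ins (0.0188 to 0.0263% of reads) and were left out.

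Groups came from the labels. Counts of the 2 MCF10A eGFP and 2 MCF10A GIRK1 libraries were fitted over all genes with edgeR 4.0.16 (R 4.3.3, limma 3.58.1): TMM, filterByExpr, glmQLFit, glmQLFTest and Benjamini-Hochberg adjustment at 0.05. Standard errors come from the F value. Intervals of levels are exact Poisson, those of ratios exact binomial, and both, like the floor of 3 reads, cover counting error only. DESeq2 1.42.0, other normalizations and filters, more libraries, covering reads, a replicate block and leaving out each library were the alternatives. The fit was tested on simulated data.

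The members and the gene lists were chosen with earlier results of these data known. Named genes were the 10 members, in each pathway list every gene past the threshold (at most 6) and the 3 with the highest mean RPM, and the 3 genes most like each of the 2 members with the largest log2 differences. Promoter windows came from RefSeq (GRCh38.p14), which matched 7 of the 10 members, and positions from GENCODE by symbol. Amplicon sequences were not used here. Some genes that these rules name are not reported here.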

Additional observations from a re-analysis of the deposited data

Results flagged for a closer look

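The library labelled WT replicate 1 is outside the comparison of MCF10A GIRK1 with MCF10A eGFP, and 5 of the 10 genes were read in it at levels whose exact Poisson interval lay above those of both MCF10A eGFP libraries and of WT replicate 2. These were IGFBP5 at 1334 RPM, IGFBP4 at 328 RPM, IGFBP2 at 300.1 RPM, IGF1R at 275 RPM and IGFBP3 at 7.18 RPM. By RPM alone, 36.9% of all genes tested lay above the other 5 libraries in it, so high levels in this library were common. A share by intervals was not computed over all genes, and nothing is read from the count. With a single library of this profile, these levels have no replicate check.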

How the results depend on the processing

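The number of genes called between MCF10A GIRK1 and MCF10A eGFP was 172. It was 881 without a filter, 111 with at least 10 reads in every library and 693 by DESeq2. The fit of all 6 libraries, which takes the 2 libraries labelled WT as replicates, called 0 (606 at an unadjusted p below 0.05). Leaving out 1 library gave 97 to 2930. Of the members, 1 was called with at least 10 reads in every library, because IGFBP7 failed that filter, and 0 with all 6 libraries (3 at an unadjusted p below 0.05). Leaving out 1 library gave 2 to 3. Of the pathway genes, 6 were called without a filter, 4 by DESeq2 and 0 with all 6 libraries (1 at an unadjusted p below 0.05), and leaving out 1 library gave 1 to 15. The fold and CV rule named 2 members with the population SD. The log2 differences of 2 members reversed: IGFBP2 to -0.18 without MCF10A GIRK1 replicate 2 (up to 1.49 without another library) and IGFBP4 to -0.46 without MCF10A GIRK1 replicate 1 (up to 0.62). Except for the member lost to the filter, the cause was not tested. Of 115 single-gene values under an alternative, 102 kept direction and side of the threshold, 6 lost the call, 5 gained it and 2 reversed.

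The labels give no pairing of replicates beyond their number, so whether same-numbered libraries belong together is not known. The replicate differences of MCF10A eGFP and MCF10A GIRK1 correlated at 0.196 over 9082 genes. With a replicate block, 589 genes, 3 members (IGFBP3 added) and 4 pathway genes (CYR61 and IGF2BP2 added) were called. With 2 libraries per line and 1 to 13 reads behind the lower values of IGFBP3 and IGFBP7, folds of these genes are imprecise.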
